A study of Rattus norvegicus with 62 samples.

Results

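Retinoid binding and metabolism were followed through 9 genes in rat hearts after rosiglitazone: the binding protein genes Rbp7, Rbp4, Crabp1 and Crabp2, the retinoic acid synthesis genes Rdh10, Aldh1a1 and Aldh1a2, the retinoic acid degradation gene Cyp26b1 and the receptor gene Rarb. The members were all probe sets that the platform annotation gives to exactly 1 gene, that gene being 1 of these 9, out of 14218 genes with such a probe set. They had 11 probe sets, of which 7, for 7 of the genes, passed a filter on dim signals. Rbp4 and Crabp2, and the dimmer probe set of Rdh10 and of Cyp26b1, did not pass. The list was chosen by measured values of these arrays: Rbp7 for having the largest drug response of the series, and Cyp26b1 with its lower level at 80 mg/kg known. Their drug responses are therefore described with values and intervals. Where calls of these genes are counted, nothing is read from the count.

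The samples were heart muscle from male rats of the outbred Wistar strain. Rosiglitazone, a glucose-lowering drug that activates the nuclear receptor PPAR gamma, was given by mouth once daily during 14 days at 10 or 80 mg/kg, and control rats received vehicle (dose 0). The design text gives the sampling times of 6, 24, 168 and 336 h as hours after the last dose. On that reading, used here, every group was sampled after treatment had ended. The source names of the samples can be read otherwise, and which reading holds was not tested. Vehicle was represented by 4, 6, 5 and 5 samples at these times, 10 mg/kg by 5, 5, 5 and 6, and 80 mg/kg by 5, 5, 6 and 5, each with its own array (62 in 12 groups). The labels do not say that each sample was its own animal, and give no age.

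Retinol, vitamin A, is carried in blood by RBP4 and inside cells by small lipid-binding proteins, to which RBP7 belongs. RDH10 oxidises retinol to retinaldehyde, and ALDH1A1 and ALDH1A2 oxidise retinaldehyde to retinoic acid. CRABP1 and CRABP2 bind retinoic acid in the cytoplasm, CYP26B1 degrades it, and in the nucleus it activates receptors such as RARB. These receptors pair with RXR on DNA, and RXR is also the partner of PPAR gamma. In mice Rbp7 is known as a gene of the capillary endothelium and of fat tissue, and as a PPAR gamma target in the endothelium. In mouse embryos ALDH1A2 makes the retinoic acid that the developing heart needs, much of it in the epicardium.

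Sequences from RefSeq (assembly GRCr8) are shown for 3 members: the bases before the start of the genes with the highest (Rbp7) and the lowest (Cyp26b1) difference of 80 mg/kg from vehicle among the members that passed the filter, and the stretch of the Rarb promoter with a direct repeat. In this assembly Rbp7 spans bases 165169700 to 165177427 of chromosome 5, Cyp26b1 118599356 to 118616176 of chromosome 4 and Rarb 10837252 to 11482037 of chromosome 15. The Rbp7 and Rarb starts used here lie inside these spans. Capitals mark TATAA in Rbp7 and the repeated GTTCA in Rarb, and Cyp26b1 had no match to a searched motif.
Rbp7, the 250 bases before the start, chr5:165177400-165177649, minus strand: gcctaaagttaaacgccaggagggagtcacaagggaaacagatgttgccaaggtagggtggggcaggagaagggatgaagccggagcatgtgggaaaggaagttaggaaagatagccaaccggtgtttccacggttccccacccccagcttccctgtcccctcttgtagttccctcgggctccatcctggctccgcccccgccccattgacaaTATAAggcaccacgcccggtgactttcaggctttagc
Cyp26b1, the 250 bases before the start, chr4:118616177-118616426, minus strand: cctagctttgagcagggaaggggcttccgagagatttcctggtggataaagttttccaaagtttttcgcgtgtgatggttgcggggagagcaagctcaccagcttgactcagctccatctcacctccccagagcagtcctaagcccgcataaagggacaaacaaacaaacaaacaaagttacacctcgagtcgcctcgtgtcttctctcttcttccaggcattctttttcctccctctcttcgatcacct
Rarb, around the repeat, chr15:11336411-11336438, plus strand: ggaaggGTTCAccgaaaGTTCActcgca

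The windows searched ran from 250 bases before to 50 bases after each start, on both strands. Of 33469 windows of that length, 16.2% held the nuclear receptor core AGGTCA and 14.5% its variant AGTTCA. A repeat of the kind bound by PPAR with RXR, AGGNCANAGGNCA, stood in 0.415%, one of the kind bound by retinoic acid receptors, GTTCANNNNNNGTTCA, in 0.418%, and the TATA box core TATAA in 26.2%. Among the 8 members with a window, TATAA lay 37 to 33 bases before the start in Rbp7, 50 to 46 before it in Rbp4 and 73 to 69 before it in Crabp2. The repeat in Rarb, known in mouse and human as the retinoic acid response element of this promoter, lay 25 to 40 bases after the start, and the AGTTCA at 35 to 40 overlapped it. No other match was found, and a match is a description of letters only.

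Values are log2 signals after quantile normalization between arrays, and a difference is between 2 group means on that scale, with its 95% interval from limma, fitted to 18625 probe sets. A probe set is called where its p, adjusted by Benjamini-Hochberg over all of them, is under 0.05. Without that normalization all probe sets together shifted, with a median of 0.37, -0.30, -0.21 and 0.04 at 80 mg/kg relative to vehicle (6, 24, 168 and 336 h), of -0.01, -0.36, -0.25 and 0.14 at 10 mg/kg, and of 0.38, 0.06, 0.04 and -0.10 between 80 and 10 mg/kg. With the arrays scaled to 1 median, only the shifts at 24 h passed 0.1 (-0.17 at 80 mg/kg and -0.13 at 10 mg/kg). Every change below is thus a change against the bulk of probe sets.

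Several arrays stood apart from their groups. The atrial myosin light chain gene Myl7 was above 9 in 10 arrays, which were 1 of 4 vehicle, 4 of 5 10 mg/kg and 2 of 5 80 mg/kg arrays at 6 h, and 3 of 5 80 mg/kg arrays at 24 h. The difference between the 3′ and 5′ actin control probe sets, a sign of RNA quality, was above 1.5 in 1 vehicle array at 6 h and 2 vehicle arrays at 24 h. The arrays also fell into 3 clusters of 21, 21 and 20 on the first principal components, and all 16 arrays of 336 h lay in 1 of them. In 2 arrays of 10 mg/kg, replicate 5 at 6 h and replicate 4 at 168 h, Rbp7 was lower than in every vehicle array of their time.

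Rbp7, whose product carries retinol in cells, was higher than vehicle at 80 mg/kg at every sampling time. At 6 h it was at 10.76, 10.73, 11.21, 10.66 and 11.08 in the 80 mg/kg arrays, and at 8.42, 7.44, 7.78 and 8.20 in the vehicle arrays. The 5 treated arrays lay close together, and the groups did not overlap, as in 1.68% of all probe sets (1.08% at 24 h). At 24 h the 80 mg/kg arrays had 11.997, 10.21, 11.16, 10.71 and 10.00, against a lowest, median and highest vehicle value of 7.48, 7.69 and 9.001. The vehicle array at 9.001 was replicate 4, 1 of those with a high actin difference, and it still lay below every 80 mg/kg array.

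At 168 h the 80 mg/kg arrays had a lowest, median and highest Rbp7 value of 11.24, 11.51 and 11.88, and the vehicle arrays had 7.93, 7.79, 7.56, 7.78 and 7.86. At 336 h the 80 mg/kg arrays stood at 11.73, 12.52, 11.10, 12.03 and 11.83, and the vehicle arrays at 7.24, 7.93, 7.81, 7.75 and 7.96. Neither pair of groups overlapped, as in 0.612% of all probe sets at 168 h and 2.52% at 336 h, and vehicle arrays spread least at 168 h. The differences from vehicle were 2.93 (2.08 to 3.78), 2.95 (2.18 to 3.72), 3.76 (2.99 to 4.53) and 4.10 (3.30 to 4.91) at 6, 24, 168 and 336 h. As folds these were 7.62, 7.71, 13.6 and 17.2, and the last exceeded the first, with intervals that overlapped.

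At 10 mg/kg the order over time was another. At 6 h Rbp7 was at 11.11, 11.12, 10.83, 10.34 and 7.43 in the 10 mg/kg arrays, which put 4 of them above every vehicle array and 1 below every vehicle array. At 24 h the 10 mg/kg arrays had 8.15, 8.91, 8.37, 8.92 and 8.83, at 168 h they had 8.82, 9.02, 7.29, 8.81 and 9.76, and at 336 h their lowest, median and highest values were 8.87, 9.54 and 9.73. The differences from vehicle were 2.21 (1.36 to 3.06), 0.77 (-0.00 to 1.54), 0.96 (0.15 to 1.76) and 1.71 (0.94 to 2.48). These are folds of 4.63, 1.70, 1.94 and 3.28, and the groups overlapped at 6, 24 and 168 h (1.15%, 0.43% and 0.403% of all probe sets did not) but not at 336 h (0.666%).

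These values depend on the arrays that lay apart. Without 10 mg/kg replicate 4 at 168 h the difference from vehicle there was 1.32. Without 10 mg/kg replicate 5 at 6 h the difference from vehicle at 6 h was 2.89, and the difference of 80 from 10 mg/kg at that time was 0.04 in place of 0.72 (-0.09 to 1.53). At the later times Rbp7 was higher at 80 than at 10 mg/kg by 2.18 (1.37 to 2.98), 2.80 (2.03 to 3.57) and 2.39 (1.62 to 3.16), which are folds of 4.53, 6.98 and 5.24 with no overlap, as in 0.424%, 0.365% and 0.773% of all probe sets (0.569% at 6 h). So the doses stood close together at 6 h and well apart from 24 h on.

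**Figure D1:**
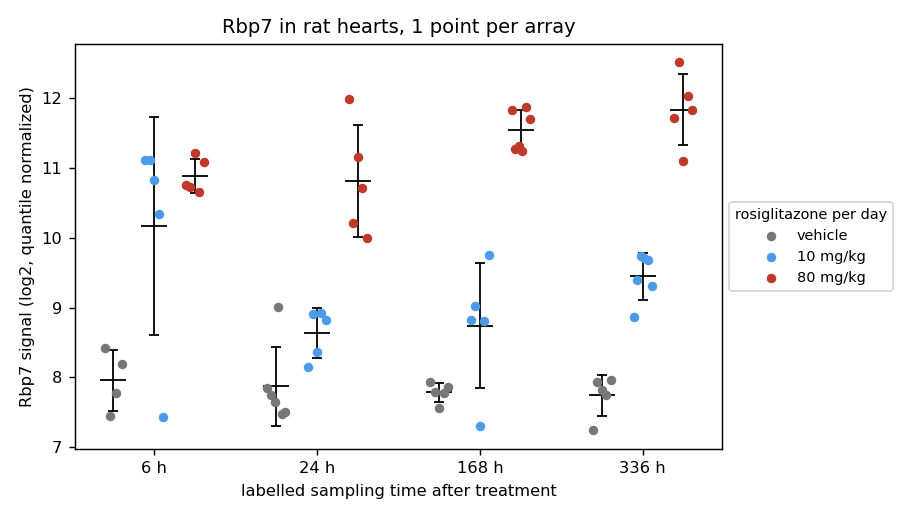
Log2 signal of Rbp7 in each array (points) by labelled sampling time and dose (vehicle, 10 and 80 mg/kg from left to right), with the mean and SD of each group as bars. The 80 mg/kg arrays lie between 10.00 and 12.52 and above every vehicle array of their time, and 1 array of 10 mg/kg at 6 h lies at 7.43.

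Ordered by mean, the 12 groups ran through the vehicle groups (7.74 at 336 h, 7.78 at 168 h, 7.87 at 24 h and 7.96 at 6 h), then 10 mg/kg (8.64 at 24 h, 8.74 at 168 h, 9.45 at 336 h and 10.17 at 6 h) and then 80 mg/kg (10.81 at 24 h, 10.89 at 6 h, 11.54 at 168 h and 11.84 at 336 h). Of the neighbours in this order only 80 mg/kg at 6 h and at 168 h did not overlap, with a gap of 0.65 between their means. The level in vehicle arrays did not pass the test for a difference between the 4 times (limma, moderated F test, adjusted p = 0.977). On the deposited linear scale the median signal of Rbp7 was 230, 256, 211 and 243 in vehicle arrays, 1942, 342, 310 and 954 at 10 mg/kg, and 2412, 1696, 2430 and 4339 at 80 mg/kg, in the order of the times.

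The arrays that stood apart moved the Rbp7 values at 6 and 24 h. Without the 10 arrays with high Myl7 the difference of 80 mg/kg from vehicle was 2.95 at 6 h and 2.24 at 24 h, that of 10 mg/kg from vehicle at 6 h was 3.24 with 1 treated array left (replicate 5 is among those left out), and that of 80 from 10 mg/kg was -0.29 at 6 h and 1.47 at 24 h. Without the 3 arrays with a high actin difference, 80 mg/kg exceeded vehicle by 3.08 at 6 h and 3.23 at 24 h, and 10 mg/kg exceeded it by 2.36 and 1.05. Within the clusters of arrays Rbp7 was higher than vehicle in 8 of 8 comparisons at 80 mg/kg and in 7 of 7 at 10 mg/kg (0.13 to 2.98). It was higher at 80 than at 10 mg/kg in 8 of 8 such comparisons, by 0.03 to 3.81. Several of these comparisons had only 1 array on a side.

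Both arrays of 10 mg/kg with low Rbp7 were also low in Gpihbp1 and Fabp4, the genes whose group means ran most like those of Rbp7. Those means include the arrays named here, so the choice of these genes favours such a likeness. Gpihbp1, which anchors lipoprotein lipase on capillaries, was at 7.24 in replicate 5 at 6 h and at 8.90 to 9.49 in the other 10 mg/kg arrays of that time. Fabp4, a fatty acid carrier of fat cells and capillaries, was at 11.66 there and at 12.66 to 12.93 in the others. In replicate 4 at 168 h Gpihbp1 was at 7.88, against 8.50 to 8.88, and Fabp4 at 11.71, against 12.04 to 12.17. Vehicle replicate 4 at 24 h, high in Rbp7, was also high in Gpihbp1 (8.63 against 7.17 to 7.89) and in Fabp4 (12.06 against 11.72 to 11.89). Fabp5, another fatty acid carrier gene, was low in replicate 5 at 6 h only (9.76 against 10.44 to 10.78). In replicate 4 of 10 mg/kg at 168 h it was at 9.89, against 9.58 to 10.11. In vehicle replicate 4 at 24 h it was at 10.08, against 9.80 to 10.34. Whether these arrays carry the right labels was not tested.

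In tissue homogenates, more cells of a type and more RNA per cell cannot be told apart. Of 6 listed cardiomyocyte markers 5 were measured and passed the filter, with a summed linear signal of 56070 to 64600 over all arrays. Of 12 listed endothelial markers 11 were measured, and 8, 1, 6 and 5 of the 11 were higher at 80 mg/kg than in vehicle at 6, 24, 168 and 336 h. Of these 1 was called, Kdr at 336 h (0.48, SE 0.09, limma adjusted p = 0.00401), a VEGF receptor picked out once its value was known. The summed signal of the 11 was 7769 to 9289, 7459 to 9149, 7911 to 9253 and 7938 to 9293 at 80 mg/kg at the 4 times, and 7488 to 9829, 8200 to 10420, 8402 to 9759 and 8874 to 9127 in vehicle.

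Of 10 listed adipocyte markers 9 were measured, and the fat cell genes Adipoq, Plin1, Cidec and Lep were below the filter. The summed signal of all 9, with those below the filter, was 10120 to 11410, 6814 to 9822, 7206 to 10680 and 7839 to 11540 at 80 mg/kg at the 4 times, and 5723 to 6462, 5608 to 6096, 4970 to 6074 and 6067 to 6608 in vehicle. Fabp4 made up the bulk of this sum and was the only marker of the list that was called.

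Cyp26b1, which degrades retinoic acid, was lower at 80 mg/kg than in vehicle at the later times. At 6 h its brighter probe set was at 6.09, 6.21, 6.82, 6.66 and 7.37 at 80 mg/kg, and at 5.99, 6.24, 6.70 and 6.35 in vehicle. At 24 h the 80 mg/kg arrays had 6.00, 7.001, 6.64, 6.65 and 6.48, against a lowest, median and highest vehicle value of 6.48, 6.88 and 7.31. At both times the groups overlapped.

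At 168 h the lowest, median and highest Cyp26b1 values at 80 mg/kg were 6.00, 6.13 and 6.64, and the vehicle arrays had 7.62, 7.50, 7.23, 6.76 and 7.45. At 336 h the 80 mg/kg arrays were at 5.81, 6.09, 6.18, 5.60 and 5.69, and the vehicle arrays at 7.52, 7.14, 7.63, 6.80 and 6.27. At both of these times every 80 mg/kg array was below every vehicle array, as in the 0.612% and 2.52% of probe sets given above in either direction. The differences were 0.31 (-0.24 to 0.86), -0.33 (-0.82 to 0.17), -1.11 (-1.61 to -0.62) and -1.20 (-1.72 to -0.68) at 6, 24, 168 and 336 h, and at the last 2 times the level in vehicle was 2.16 and 2.29 times that at 80 mg/kg.

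The vehicle level of Cyp26b1 was tested between the sampling times, since it enters each of these differences. For the same reason the test is not independent of the choice of Cyp26b1, and no conclusion is drawn from it. Vehicle means were 6.32 ± 0.29, 6.88 ± 0.32, 7.31 ± 0.34 and 7.07 ± 0.56 (SD, n = 4, 6, 5 and 5) at 6, 24, 168 and 336 h. At 80 mg/kg the means were 6.63 ± 0.52, 6.56 ± 0.36, 6.20 ± 0.24 and 5.87 ± 0.25 (SD, n = 5, 5, 6 and 5). Vehicle means thus ran up to 168 h while those at 80 mg/kg ran down. The test between the vehicle times gave a limma F test adjusted p of 0.0627, so the difference did not pass. It passed, at 0.0412 to 0.0478, without vehicle replicate 2 at 24 h, vehicle replicate 4 at 168 h, vehicle replicate 6 at 336 h or 10 mg/kg replicate 6 at 168 h. Sampling time and array cluster cannot be told apart at 336 h.

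At 10 mg/kg Cyp26b1 means were 6.13 ± 0.45, 6.73 ± 0.35, 6.54 ± 0.58 and 6.44 ± 0.53 (SD, n = 5, 5, 5 and 6). They differed from vehicle by -0.19, -0.15, -0.77 (-1.29 to -0.26) and -0.63 (-1.13 to -0.14). The 10 mg/kg values thus lay between the other doses at 168 and 336 h, with overlap with both. The comparison of 80 with 10 mg/kg uses the same 80 mg/kg arrays as that of 80 mg/kg with vehicle. In it 80 mg/kg differed by 0.50 (-0.02 to 1.02), -0.17 (-0.69 to 0.35), -0.34 (-0.83 to 0.16) and -0.56 (-1.06 to -0.07).

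Within the clusters the difference of 80 mg/kg from vehicle in Cyp26b1 was 0.75 and 0.07 at 6 h, -0.81 and -0.14 at 24 h, -0.93, -1.61 and -0.95 at 168 h and -1.20 at 336 h. The -1.61 set 2 arrays against 1, and the -0.95 set 1 against 1. Without the arrays with high Myl7 the difference was 0.40 at 6 h and -0.14 at 24 h. Leaving out 1 array at a time kept it between -1.25 and -1.04 at 168 h and between -1.40 and -1.06 at 336 h. The dimmer probe set of the gene, below the filter with arrays from 1.65 to 6.34, differed by -0.05, -0.32, 0.45 and -0.49 at the 4 times, and so did not show the lower level at 168 h.

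**Figure D2:**
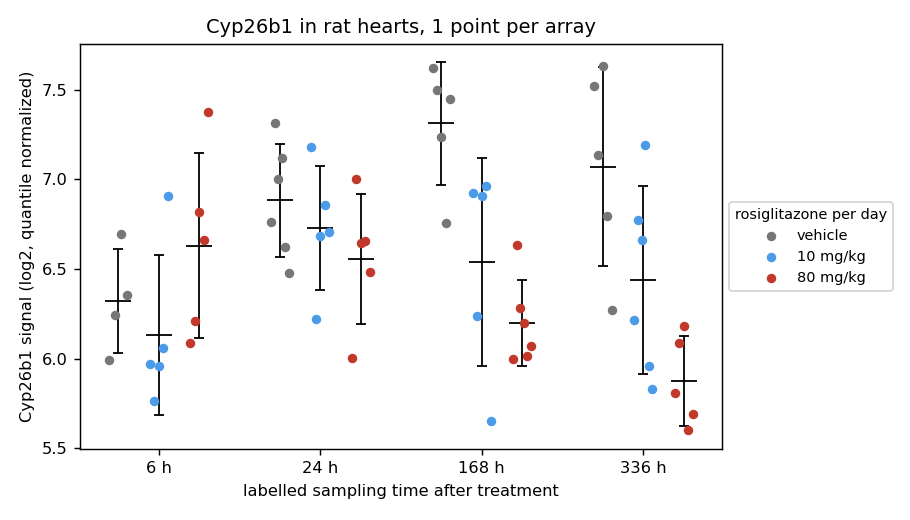
Log2 signal of the brighter Cyp26b1 probe set in each array (points) by labelled sampling time and dose (vehicle, 10 and 80 mg/kg from left to right), with the mean and SD of each group as bars. At 168 and 336 h all 80 mg/kg arrays lie at or below 6.64 and below all vehicle arrays of their time.

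For 80 mg/kg against vehicle, 5 of the members' 28 tests were called, which were Rbp7 at 4 times and Cyp26b1 at 336 h. Over all probe sets 0.0537%, 0.14%, 0.0537% and 0.29% were called at the 4 times and 0.134% of all tests, and this contrast chose both genes. The call of Cyp26b1 ended without any 1 of 4 arrays (vehicle 2 or 4 and 80 mg/kg 4 or 5 at 336 h, differences of -1.15 to -1.06), on the signals as deposited (-1.19) and in a fit of that time alone (-1.20). For 80 against 10 mg/kg 3 were called, Rbp7 at 24, 168 and 336 h, where the shares over all probe sets were 0%, 0.0107%, 0.0376% and 0.102% at the 4 times and 0.0376% over them. These calls reuse the 80 mg/kg arrays for which Rbp7 was chosen, and the one at 24 h ended without the arrays with high Myl7 (1.47), which were 3 of the 5 at 80 mg/kg. For 10 mg/kg against vehicle 0 were called by limma, as over all 18625 probe sets (0%), of which 1196, 1088, 718 and 676 had an unadjusted p under 0.05 at the 4 times. Leaving out Rbp7, 3, 1, 2 and 2 of the 6 other genes had a positive difference of 80 mg/kg from vehicle, with medians of -0.01, -0.34, -0.03 and -0.08. Over all probe sets the medians were 0.01, -0.02, -0.01 and -0.01.

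**Figure D3:**
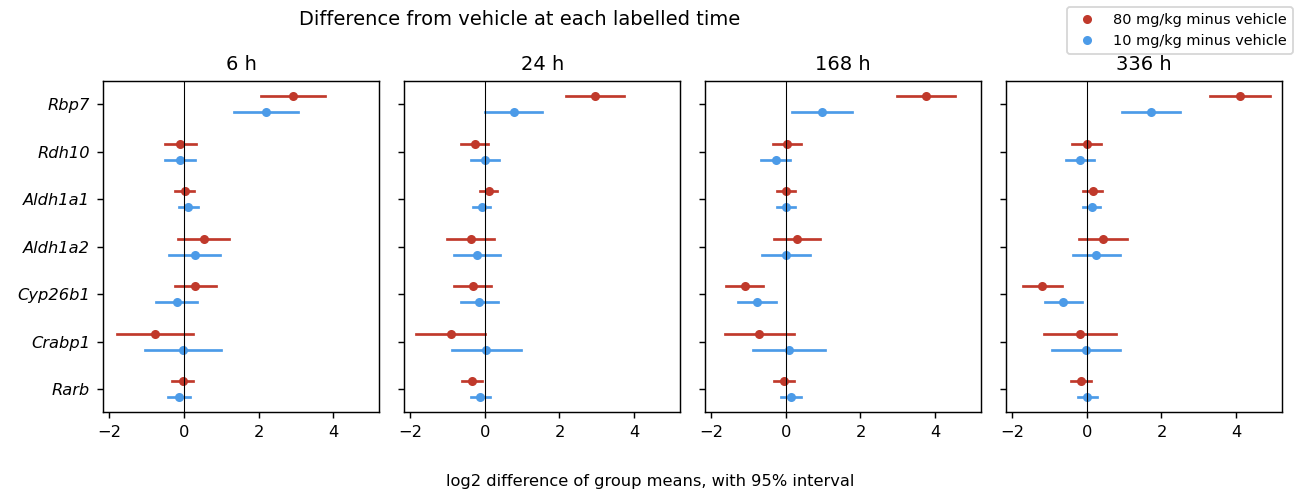
Differences in log2 signal from vehicle (points) with 95% limma intervals (lines) for the 7 genes that passed the filter, for 80 mg/kg above 10 mg/kg at each sampling time. Rbp7 at 80 mg/kg lies between 2.93 and 4.10, and the intervals of Aldh1a1 stay between -0.32 and 0.40.

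Crabp1, which binds retinoic acid in the cytoplasm, had low values in some 80 mg/kg arrays but did not pass the test. At 6 h it was at 5.46, 5.46, 5.84, 4.62 and 4.11 at 80 mg/kg, and at 6.36, 6.01, 5.17 and 5.97 in vehicle. At 24 h the 80 mg/kg arrays had 3.10, 4.79, 5.63, 5.57 and 5.51, against 5.04, 5.94 and 6.37 as the lowest, median and highest vehicle values. At 6 and 24 h every 80 mg/kg array was below the vehicle mean of its time, though the groups overlapped. The differences were -0.78 (-1.80 to 0.24), -0.92 (-1.84 to 0.00), -0.72 (-1.64 to 0.20) and -0.18 (-1.14 to 0.78) at the 4 times, with limma adjusted p of 0.82, 0.452, 0.988 and 0.998.

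At 10 mg/kg Crabp1 differed from vehicle by -0.02, 0.04, 0.08 and -0.02, with intervals that reached about 1 on either side. Within the clusters 80 mg/kg was below vehicle in 8 of 8 comparisons (-2.42 to -0.10) and below 10 mg/kg in 8 of 8 (-1.57 to -0.16), which share their 80 mg/kg arrays. These comparisons split the same contrasts, none of which passed, and several had 1 array on a side. The -2.42 set 2 arrays against 1, and the -0.10 set 1 against 1. The SD of Crabp1 in the 80 mg/kg groups was 0.71, 1.07, 1.05 and 1.33, against 0.50, 0.50, 0.41 and 0.48 in vehicle. The lowest 80 mg/kg arrays were at 3.10 at 24 h, 2.93 at 168 h and 3.21 at 336 h, below the level of 5.03 at which probe sets were kept. Without the arrays with high Myl7 the difference from vehicle was -1.12 at 6 h and -0.69 at 24 h.

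The secreted carrier gene Rbp4 and the retinoic acid binding gene Crabp2 were below the filter. Rbp4 signals ran from 0.66 to 7.41 over all arrays and differed between 80 mg/kg and vehicle by 0.27, 0.26, -0.59 and -0.35. In a limma fit without the filter the difference of 10 mg/kg from vehicle at 168 h was -1.76 for Rbp4 (adjusted p = 1). Crabp2 signals ran from 2.36 to 6.04 and were higher at 80 mg/kg than in vehicle by 0.94, 0.93, 0.73 and 0.18, none of which passed. The SD within groups was 0.86 to 2.26 for Rbp4 and 0.89 to 1.29 for Crabp2.

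The 3 genes of retinoic acid synthesis had 0 calls by limma against vehicle at either dose and 0 with an unadjusted p under 0.05. Over all probe sets 0.134% were called over the 4 times at 80 mg/kg and 0% at 10 mg/kg. Those of all 18625 with an unadjusted p under 0.05 numbered 1239, 2065, 1014 and 1298 at 80 mg/kg. At 10 mg/kg they numbered 1196, 1088, 718 and 676. With 3 genes nothing is read from these counts. Aldh1a1 had group means of 8.71 to 8.97 over all 12 groups. Its differences of 80 mg/kg from vehicle were 0.02, 0.10, -0.00 and 0.15, with intervals that together spanned -0.24 to 0.40, so that a change of the size seen in Cyp26b1 lies outside them. Rdh10 differed by -0.09, -0.28, 0.03 and 0.00 at its brighter probe set, with the lowest limit at -0.65 (24 h) and the highest at 0.40 (168 h). Its vehicle means were 6.13, 6.20, 5.98 and 5.72 at the 4 times (limma F test, adjusted p = 0.242). The dimmer probe set of Rdh10 differed by -0.85, -0.06, -0.00 and -0.83, which the brighter one did not show.

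Aldh1a2 was higher at 80 mg/kg than in vehicle at 6 h by 0.53 (-0.16 to 1.22), with all 5 treated arrays above the vehicle mean, but the adjusted p was 0.818 with limma. At 24, 168 and 336 h the differences were -0.38, 0.29 and 0.43, with adjusted p of 0.672, 1 and 0.901. The vehicle groups held 2 low arrays, replicate 4 at 168 h at 3.92 and replicate 4 at 336 h at 4.40, and 10 mg/kg held another, replicate 2 at 168 h at 4.19. These set the SD of 1.04 in vehicle at 168 h, against 0.23 at 24 h. The epicardial and mesothelial marker list, of which 8 of 11 measured genes passed the filter, had 0 called by limma at 80 mg/kg against vehicle, and 0, 2, 1 and 0 with an unadjusted p under 0.05 at the 4 times, where 1239, 2065, 1014 and 1298 of all 18625 probe sets had one. The summed signal of all 11 measured genes was 612 to 746, 485 to 914, 581 to 777 and 596 to 811 at 80 mg/kg, and 656 to 874, 628 to 826, 646 to 800.0 and 535 to 700.0 in vehicle.

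Rarb, the receptor gene whose promoter holds the repeat shown above, differed by less than the spread between arrays at most times. At 24 h it was at 7.88, 8.07, 8.47, 7.76 and 7.88 at 80 mg/kg, against 8.19, 8.35 and 8.63 as the lowest, median and highest vehicle values. Of the 5 treated arrays 4 lay below every vehicle array. The difference was -0.35 (-0.62 to -0.09), with a limma adjusted p of 0.326, and it was -0.39 without the arrays with high Myl7. With the arrays scaled to 1 median it was -0.56 and on the signals as deposited -0.69, where all probe sets together shifted by -0.17 and -0.30. At 6, 168 and 336 h it was -0.04, -0.05 and -0.16, and at 10 mg/kg it was -0.12, -0.12, 0.13 and 0.01 over the 4 times.

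**Figure D4:**
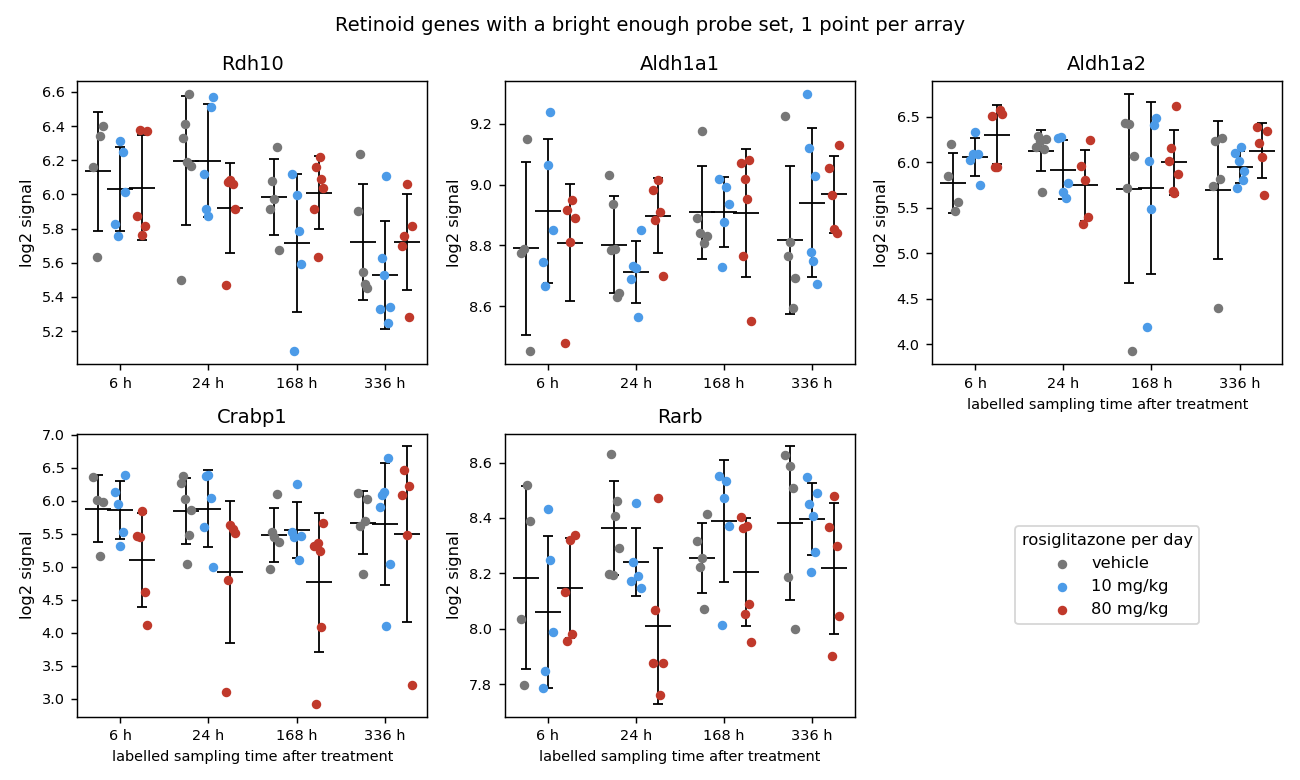
Log2 signals of Crabp1, Rdh10, Aldh1a1, Aldh1a2 and Rarb in each array (points) by labelled sampling time and dose (vehicle, 10 and 80 mg/kg from left to right), with group means and SD as bars. Aldh1a1 group means stay between 8.71 and 8.97, while single Crabp1 arrays at 80 mg/kg reach down to 2.93.

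The tests of whether the drug effect differed between the 4 sampling times called 0 of the members other than Rbp7 and Cyp26b1, with limma F test adjusted p of 0.792 to 0.963 at 80 mg/kg. Over all probe sets 0.0215% passed this test. At 10 mg/kg the adjusted p of these 5 genes was 0.984 or higher. In vehicle arrays alone 0 of the 7 genes passed, with the smallest adjusted p being the 0.0627 of Cyp26b1, where 8.05% of all probe sets passed.

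A wider list of 61 genes of retinoid transport, metabolism and receptors had 48 genes on the array, and 42 probe sets of 33 genes passed the filter. At 80 mg/kg 29, 18, 24 and 20 of the 42 were above vehicle at 6, 24, 168 and 336 h, with medians of 0.08, -0.03, 0.01 and -0.02. Only Fabp5 was called, a carrier of fatty acids that in mouse cells also delivers retinoic acid to PPAR delta. At 168 h Fabp5 was at 10.32 to 10.77 at 80 mg/kg (10.61 ± 0.18, SD, n = 6), against 9.60 to 10.08 in vehicle (9.83 ± 0.20, SD, n = 5). Every treated array was above every vehicle array, where 0.612% of all probe sets did not overlap in either direction. The difference was 0.78 (SE 0.16, limma adjusted p = 0.0234), where 0.0537% of all probe sets were called.

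At 336 h the Fabp5 values were 10.71, 11.46, 10.29, 10.69 and 10.65 at 80 mg/kg, against 9.87, 9.91, 10.25, 9.72 and 9.96 in vehicle. These groups did not overlap, as in 2.52% of all probe sets. This is a rise of 0.82 (SE 0.17, limma adjusted p = 0.00572), where 0.29% of all probe sets were called. Against the 10 mg/kg group of that time, at 9.98 ± 0.12 (SD, n = 6), the difference was 0.78 with an adjusted p of 0.011. Without the array at 11.46 the differences were 0.64 (adjusted p = 0.0769) and 0.61 (adjusted p = 0.266). On the signals as deposited these calls did not hold (adjusted p = 1 for both). At 168 h the call ended without any 1 of 6 arrays (vehicle 2, 4 and 5, 80 mg/kg 1, 5 and 6), with a difference of 0.72 to 0.84 and an adjusted p of up to 0.137, and on the signals as deposited (0.59, adjusted p = 0.806).

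In vehicle arrays 7 of the 42 probe sets of the wider list changed between the sampling times, where 8.05% of all probe sets did. The corepressor gene Nrip1 had means of 7.62, 7.38, 7.42 and 6.87 at 6, 24, 168 and 336 h (limma F test, adjusted p = 0.00287). The retinoic acid receptor gene Rarg had 6.08, 6.47, 6.33 and 7.06 (adjusted p = 0.0392), and Dhrs3, which reduces retinaldehyde to retinol, had 8.54, 8.75, 8.70 and 8.96 (adjusted p = 0.0401). The nuclear receptor gene Ppard had 7.81, 7.77, 7.62 and 8.23 (adjusted p = 0.0401). Of these 4, Nrip1 was lowest at 336 h and the other 3 highest.

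The fatty acid transporter gene Cd36 had vehicle means of 12.04, 11.91, 12.35 and 11.62 (limma F test, adjusted p = 0.0358), the transglutaminase gene Tgm2 had 8.13, 8.59, 8.58 and 8.98 (adjusted p = 0.0444) and the corepressor gene Ncor1 had 6.77, 5.47, 6.48 and 6.73 (adjusted p = 0.0479). Another probe set of Tgm2 and another of Ncor1 did not pass this F test (limma adjusted p = 0.0583 and 0.231). At the probe sets that passed, Tgm2 was highest and Cd36 lowest at 336 h. Ncor1 was lowest at 24 h, where its SD in vehicle was 0.885. All vehicle arrays of 336 h lay in a single array cluster, so that time and cluster cannot be told apart there.

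The genes whose 12 group means ran most like those of Rbp7, among 14259 probe sets with 1 gene, were Gpihbp1 (Pearson r = 0.972), Fabp4 (0.955), Rufy3 (0.94), Ccm2l (0.93) and Fabp5 (0.922). Gpihbp1 differed between 80 mg/kg and vehicle by 1.48, 1.70, 2.42 and 2.62, Fabp4 by 1.004, 0.73, 0.94 and 1.04, and Ccm2l, a paralogue of the cerebral cavernous malformation gene Ccm2, by 0.91, 0.44, 0.64 and 0.96. Rufy3 differed by 0.18 to 0.33 only. The most opposite patterns were those of Lhx1 (-0.926), Deptor (-0.912) and Podxl (-0.899), with differences of -0.30, -0.26, -0.50 and -0.50 for Lhx1. These values describe likeness over 12 means that share their arrays, with no test.

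For Cyp26b1 the most similar patterns were those of Baiap2 (r = 0.868), Chrd (0.859), Nudt4 (0.857), Taldo1 (0.856) and Rbks (0.856), and the most opposite those of Smad7 (-0.912), Emilin2 (-0.869) and Rffl (-0.868). Chrd, whose product binds BMP ligands, differed between 80 mg/kg and vehicle by -0.00, -0.15, -0.68 and -0.51 at 6, 24, 168 and 336 h. Smad7, an inhibitor of TGF beta signalling, differed by -0.16, 0.09, 0.47 and 0.44. Both were picked for this likeness or opposition, which fixes their course over the groups.

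**Figure D5:**
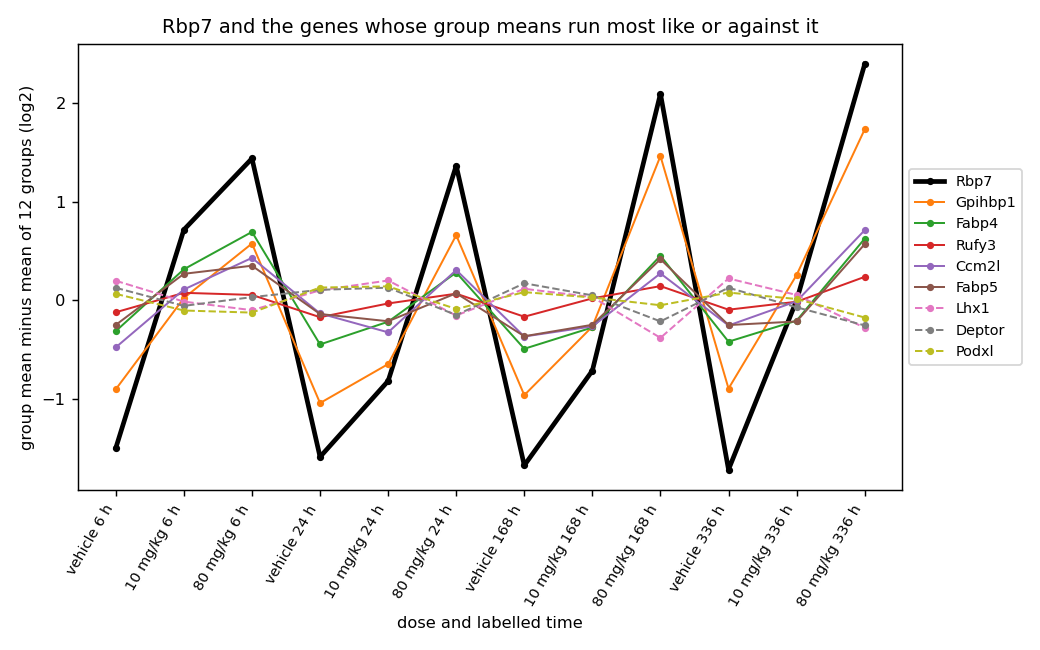
Group means of log2 signal, each minus the gene's mean over the 12 groups, for Rbp7 and the genes with the most similar and most opposite patterns, by labelled sampling time and dose (vehicle, 10 and 80 mg/kg from left to right). Gpihbp1 (r = 0.972 with Rbp7) differs between 80 mg/kg and vehicle by 1.48 to 2.62.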

How the data were processed

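Expression was measured with Affymetrix rat arrays, 1 per sample. Per the labels' protocols, heart tissue was kept in RNAlater and RNA was column-purified with a DNase step and labelled by a 1-cycle protocol. The authors deposited a linear intensity signal for each probe set and array, for which the submitters' processing notes name GCOS and MAS5 (no version is given in the sources used here). The array medians ran from 31.1 to 86.9, so log2 signals were quantile normalized. Of 31099 probe sets 57 controls were left out, and the 18625 of the other 31042 with a mean log2 signal at or above the 40th percentile (5.03) were kept. The platform annotation gave 1 gene to 20832 probe sets and several to 436, which were not named, and 20764 gene identifiers matched RefSeq, with 0 symbols replaced. Columns outside the sample map numbered 0.

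A model with 12 group means was fitted (limma 3.58.1, R 4.3.3, 50 residual and 2.36 prior degrees of freedom, median residual SD 0.297), with contrasts of doses at each time and moderated F tests between times, two-sided and adjusted by Benjamini-Hochberg over all kept probe sets. Since separate animals are not stated, p-values cover only the spread among these samples, which may be technical, and the number of arrays limits the precision. Rank correlations within groups were 0.885 to 0.952, with 0 identical pairs. In simulated data for 80 mg/kg against vehicle at 336 h, 36%, 76%, 94% and 98% of 50 probe sets shifted by 0.5, 1, 2 and 3 (log2) were called among 18625, with 8 unchanged ones. All shifts were planted at once, which eases the adjusted threshold. The noise was independent and normal, without array clusters or outlying arrays, so these shares may not hold for the real arrays.

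The members and lists were chosen with earlier results of these data known. Named were all 9 members, called probe sets of the wider list, and the 5 most similar and 3 most opposite patterns over 12 group means for Rbp7 and for Cyp26b1. Gpihbp1 and Fabp4 values per array were added after these were known. The alternatives were other scalings, no filter, array weights, the replicate block, array clusters as a block, Myl7 as a covariate, fits without the high-Myl7 or high-actin arrays or of 1 time alone, and leaving out each array.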

Additional observations from a re-analysis of the deposited data

Results flagged for a closer look

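Of 132 groups of values looked at (11 probe sets in 12 groups), 11 held an array far from the others of its group by Dixon's test at the 95% level, where chance flags about 1 in 20. For Rbp7 these were replicate 5 of 10 mg/kg at 6 h, at 7.43 where the others ran from 10.34 to 11.12, and vehicle replicate 4 at 24 h, at 9.0 where the others ran from 7.48 to 7.84. The same 10 mg/kg array was the highest of its group in Cyp26b1, at 6.91 against 5.76 to 6.06. The same vehicle array was the lowest of its group in Aldh1a2, at 5.68 against 6.15 to 6.29.

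Aldh1a2 was low in 2 more vehicle arrays, replicate 4 at 168 h at 3.92 (others 5.71 to 6.43) and replicate 4 at 336 h at 4.40 (others 5.74 to 6.27). Vehicle at 168 h held a high Aldh1a1 array, replicate 3 at 9.18 (others 8.81 to 8.89), and a low Rbp4 array, replicate 2 at 1.42 (others 4.46 to 4.93). At 80 mg/kg and 6 h replicate 1 was low in Crabp2, at 2.36 (others 4.18 to 4.91), and replicate 2 was high in the dimmer Cyp26b1 probe set, at 5.99 (others 2.58 to 3.22). At 80 mg/kg and 24 h replicate 2 was low in the brighter Rdh10 probe set, at 5.47 (others 5.92 to 6.08). The Rbp4, Crabp2 and dimmer Cyp26b1 probe sets lay below the filter.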

How the results depend on the processing

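No called difference of a member changed sign under the alternatives run. For 10 mg/kg against vehicle the count of 0 became 1 with the signals as deposited (Rbp7 at 6 h, 2.18), with array weights (Rbp7 at 336 h, 1.72), with the array cluster as a block (Rbp7 at 6 h, 2.37) and with the arrays of 1 time alone (Rbp7 at 336 h), and 2 without the high-Myl7 arrays (Rbp7 at 6 and 336 h). The count of 5 for 80 mg/kg against vehicle became 3 with the arrays of 1 time alone. These fits, which held fewer samples, lost Rbp7 at 6 h and Cyp26b1 at 336 h, and the cause was not tested. Leaving out each of the 62 arrays gave 4 to 6 for 80 mg/kg against vehicle, 0 to 2 for 10 mg/kg against vehicle, 2 to 3 for 80 against 10 mg/kg, 0 to 1 for vehicle between times and 0 for the other F tests. For 10 mg/kg the calls were Rbp7 at 6 h, without vehicle replicate 4, 10 mg/kg replicate 3 or 80 mg/kg replicate 2 at 24 h, 10 mg/kg replicate 4 or 6 at 168 h, or 10 mg/kg replicate 5 at 6 h (2.89, with Rbp7 at 336 h also called). Cyp26b1 at 168 h was called without vehicle replicate 4 (-1.25), 80 mg/kg replicate 2 (-1.20) or 10 mg/kg replicate 6 of that time. It was also called without 10 mg/kg replicate 5 or 80 mg/kg replicate 6 at 6 h. The same held without vehicle replicate 6 or 10 mg/kg replicate 4 at 336 h. The call of Cyp26b1 at 336 h ended when vehicle replicate 2 (-1.08) or 4 (-1.06) was left out, or else 80 mg/kg replicate 4 (-1.13) or 5 (-1.15), with the deposited signals (-1.19) and with the arrays of 1 time alone (-1.20), and the cause was not tested. That of Rbp7 for 80 against 10 mg/kg at 24 h ended without 10 mg/kg replicate 1 (2.06) or 3 (2.11) or 80 mg/kg replicate 2 (1.88) or 4 (2.09), without the high-Myl7 arrays (1.47), with Myl7 as a covariate (2.07) and with the arrays of 1 time alone (2.18). In the fit with a replicate block the counts were 5, 0, 3, 0, 0 and 0, and changed no call. Of 52 same-numbered pairs 14 correlated above 0.1 (-0.26 to 0.34). Their median correlation was above that of other pairs in some comparisons and below it in others. Whether the numbers pair the samples is therefore not settled. Without the filter 5 and 6 probe sets in all were called for 80 mg/kg against vehicle at 6 and 168 h, against 10 and 10 with it. In 1220 recomputed values of the other 5 genes 0 were called, with a smallest adjusted p of 0.0524. On the deposited signals 13 values of members moved by over 1 SD, and Fabp5 lost its calls at 168 h (adjusted p = 0.806) and at 336 h (adjusted p = 1). The dim probe sets allow no statement on small changes.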
